A study of Mus musculus with 8 samples.

Results

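The 10 genes described here belong to the BCL2 family: the survival genes Bcl2a1b, Bcl2a1d, Bcl2l1, Mcl1 and Bcl2, the BH3-only death genes Bmf, Bcl2l11 and Bid, and the effectors Bax and Bak1. They were taken by gene symbol, with earlier results of these data known, and all 10 were among the 11415 genes of the deposited table. Shares of these 10 set beside those of all genes are therefore descriptive. Mouse macrophages derived from bone marrow were profiled by directional, ribosome-depleted sequencing of their total RNA. The cells were grown in M-CSF, a macrophage growth factor. The mice were IL10-/-RAG2-/- animals of the 129S6/SvEvTac strain, so all groups, untreated cells included, carried disrupted Il10 and Rag2 genes.

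The libraries formed 4 groups of 2. One group received LPS (lipopolysaccharide, a part of the bacterial wall that Toll-like receptors sense) and, beside it, IL-10 (a cytokine that restrains inflammation), both at 1 ng/mL for 195 min, and is called IL-10 throughout. Another received LPS for 195 min and IL-10 for only the last 30 min, at a dose that its labels do not restate, and is called late IL-10. The remaining groups received LPS alone at 1 ng/mL for 195 min, or nothing. The labels describe 2 independent macrophage pools per group, and the p-values here measure only how far these libraries spread, which may in part be technical.

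For each gene the table gave a mature mRNA value and a pre-mRNA value per group, each the mean of 2 libraries' reads divided by their size factors. The reads of both libraries were worked out from that mean, and the values below are normalized reads per library. Within each group and measure the library with the larger size factor is called A and the other B. The letter pairs nothing: library A of the mRNA need not be the same culture as library A of the pre-mRNA, nor the same pool in different groups. Library totals were 21412968 to 53172133 reads for mRNA and 8661271 to 31508394 for pre-mRNA. Only genes with at least 11 reads in each LPS mRNA library were in the table, and Bmf, with 11 reads in LPS library B, stood at that edge.

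The BCL2 family controls the release of death-promoting proteins from mitochondria. Survival members bind and hold back the effectors Bax and Bak1, which otherwise form pores in the outer mitochondrial membrane, and BH3-only members start death by occupying the survival proteins or by engaging the effectors directly. In macrophages the A1 genes (Bcl2a1 in mouse) are known as targets of NF-kB after Toll-like receptor signalling, and Bcl2l11, which encodes Bim, and Bmf are BH3-only genes with known control at the transcript level.

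LPS was followed by the largest differences within the family. With LPS, the survival genes Bcl2a1d and Bcl2a1b rose, as did Bcl2l1, Bcl2l11 and Bid, and the BH3-only gene Bmf fell by 6.44 ± 0.59 on the log2 scale in mRNA. Of the 10 genes, 6 passed the test in mRNA, 5 higher and 1 lower in LPS cells, where 35.7% of all genes tested passed, 19.2% higher and 16.5% lower. In pre-mRNA 8 of 10 passed, 7 higher and 1 lower, where 44% of all genes tested passed, 22.3% higher and 21.7% lower. The median log2 change of the 10 genes was 1.01 in mRNA and 1.15 in pre-mRNA, beside 0.01 and 0.00 over all genes. The test was limma-trend on log2(normalized reads + 1) with Benjamini-Hochberg adjustment over all genes and a threshold of 0.05. Changes are on that scale, where low genes appear to change less than they did, and each error is the standard error of a fit in which all 4 groups share 1 estimate of the spread. In bulk RNA, fewer cells of a type and less RNA per cell cannot be told apart.

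With IL-10 throughout against LPS, 1 member was called. In IL-10-throughout cells the log2 change of Bcl2a1d pre-mRNA from LPS cells was -3.67 ± 0.70, a fall, which made it 1 of 10 genes past the threshold in that measure, where 6.7% of all genes passed. In mRNA the A1 genes Bcl2a1d (-2.43 ± 0.48) and Bcl2a1b (-1.95 ± 0.57) had lower means and Bmf (2.29 ± 0.59) a higher mean than in LPS cells, and these missed the threshold, as did all other members in both IL-10 comparisons with LPS. The IL-10 comparisons with LPS share the LPS libraries, so the values of each are given side by side and are not independent of each other.

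**Figure D1:**
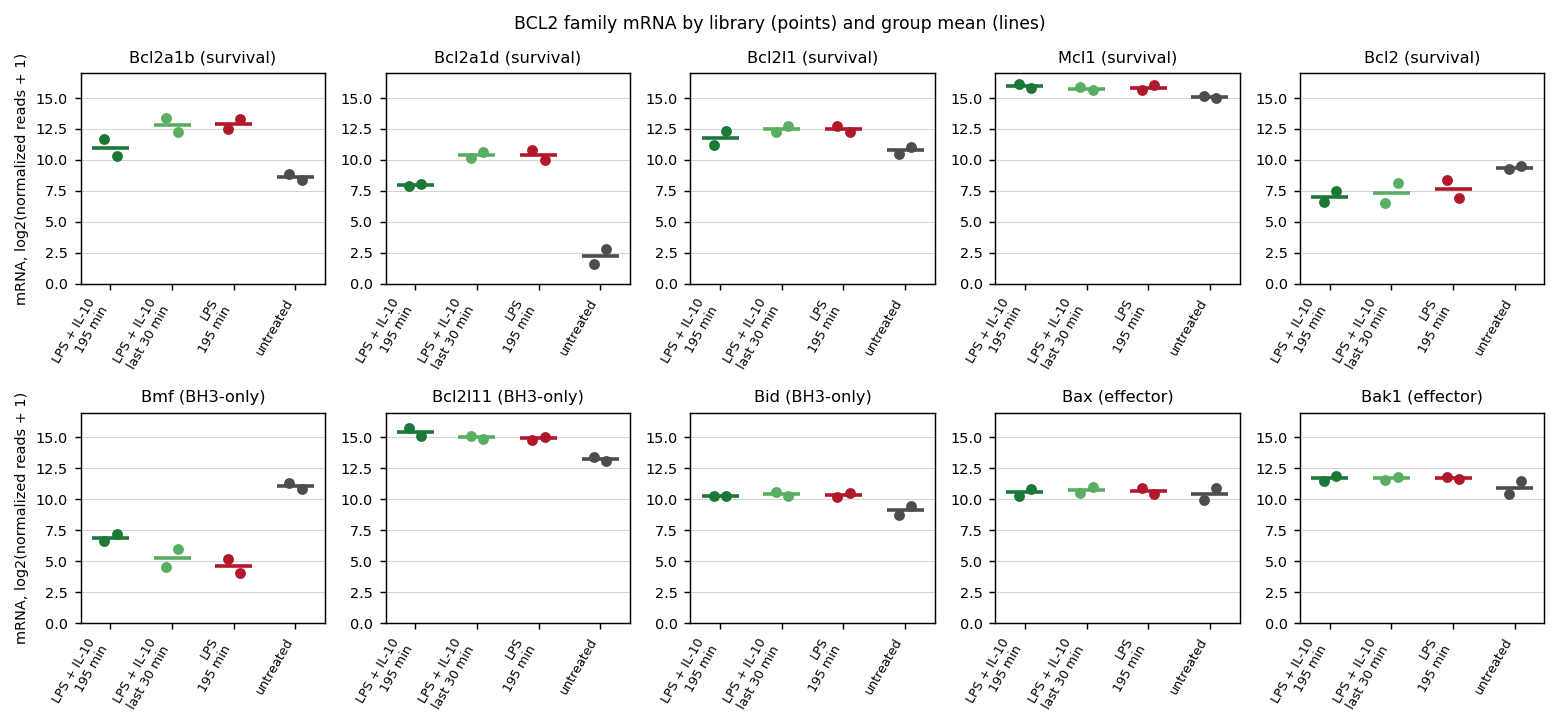
Mature mRNA of the 10 genes in every library, as log2(normalized reads + 1) on a common axis, with 1 point per library and a line at the mean of the 2 points. Bmf has at most 146 normalized reads in the treated libraries, against 2471 and 1813 in the untreated ones, and Bcl2a1d has 1766 and 1034 with LPS, against 1.98 and 6.21 in untreated cells.

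Bcl2a1b and Bcl2a1d are copies of the A1 survival gene, which lies as a small cluster on mouse chromosome 9. Bcl2a1b (ENSMUSG00000089929) spans chr9:89199209-89207827 on the plus strand and Bcl2a1d (ENSMUSG00000099974) spans chr9:88723285-88731914 on the minus strand of GRCm38, each with 2 exons in GENCODE M21. Their transcripts are 99.1% identical, with 7 differing bases of 817 aligned. Of all 50-base windows of the Bcl2a1d transcript, 79.5% occur unchanged in another A1 transcript, and of those of Bcl2a1b 57.6%. The way the authors counted reads that match several copies is not given in the sources used here, so the division of reads between copies is uncertain. The first 120 coding bases are printed below in full from the GENCODE M21 transcripts on GRCm38, with capitals at the 7 positions where the copies differ, because these are among the few bases that can assign a read to a copy. Bcl2a1a, a further copy beside them, is included.
Bcl2a1d, chr9:88731600-88731719, minus strand: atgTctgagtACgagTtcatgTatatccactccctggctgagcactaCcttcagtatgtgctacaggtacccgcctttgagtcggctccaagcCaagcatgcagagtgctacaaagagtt
Bcl2a1b, chr9:89199360-89199479, plus strand: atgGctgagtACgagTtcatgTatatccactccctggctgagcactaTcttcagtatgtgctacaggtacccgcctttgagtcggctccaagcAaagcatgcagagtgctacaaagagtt
Bcl2a1a, chr9:88957051-88957170, plus strand: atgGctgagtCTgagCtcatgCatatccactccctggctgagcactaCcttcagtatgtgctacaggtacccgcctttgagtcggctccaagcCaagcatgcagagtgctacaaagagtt
Over the whole coding sequence of 516 bases the 3 copies differ at 12 positions, and 7 of these stand in the stretch shown.

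The sequences around the annotated start sites of Bcl2a1b and Bcl2a1d are also nearly alike. They are shown because both genes rose with LPS. The RefSeq promoter windows on GRCm38.p6 (250 bases before to 50 after each annotated start) overlap over 250 aligned bases with 98.8% identity, which leaves out inserted bases. From the annotated start, the aligned stretch runs from -250 to 5 in Bcl2a1b and from -200 to 49 in Bcl2a1d. The annotated starts are thus offset. Capitals mark bases that differ from, or are absent in, the other copy.
Bcl2a1d, chr9:88731801-88732050, minus strand: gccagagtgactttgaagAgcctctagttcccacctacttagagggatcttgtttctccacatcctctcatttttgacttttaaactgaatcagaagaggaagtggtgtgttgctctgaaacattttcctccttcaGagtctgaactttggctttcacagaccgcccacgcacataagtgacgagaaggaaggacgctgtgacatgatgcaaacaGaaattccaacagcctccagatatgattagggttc
Bcl2a1b, chr9:89199023-89199278, plus strand: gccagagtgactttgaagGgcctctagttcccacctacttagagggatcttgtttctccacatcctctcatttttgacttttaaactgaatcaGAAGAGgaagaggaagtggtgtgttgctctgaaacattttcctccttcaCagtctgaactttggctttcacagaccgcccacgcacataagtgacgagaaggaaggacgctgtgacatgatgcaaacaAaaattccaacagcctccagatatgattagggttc
The copies differ by an insertion of GAAGAG in Bcl2a1b and by 3 single bases. All 10 genes had a promoter window in RefSeq, 15 windows in all, and 2 more belonged to Bcl2a1a and Bcl2a1c. On both strands, the NF-kB motif (GGGA, any 2 bases, then TTCC) was in 0 of these 17 windows and in 1.47% of 32851 windows of all genes. TTCNNNGAA, the STAT motif, was in 0 of 17 and in 8.30% of all windows, and GTAAACA, the FOXO motif, was in 1 of 17 and in 3.65% of all. With that 1 match in the family no motifs overlapped there, and a missing match says only that the letters are not in the window.

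Bcl2a1d was close to silent in untreated cells and high after LPS. Its mRNA had 240.4 and 261 normalized reads with IL-10 throughout, 1115 and 1613 in late-IL-10 cells, 1766 and 1034 with LPS, and 1.98 and 6.21 in untreated cells (libraries A and B). The untreated values rest on 3 and 5 reads. Every LPS library exceeded every untreated library, and the IL-10-throughout libraries lay below all LPS and late-IL-10 libraries. LPS raised Bcl2a1d mRNA by 8.19 ± 0.48 on the log2 scale (limma-trend adjusted p = 0.000102). Its pre-mRNA had 419.6 and 156 normalized reads with IL-10 throughout, 2518 and 910.1 in late-IL-10 cells, 4115 and 2612 with LPS, and 10.1 and 2.91 in untreated cells. The pre-mRNA followed the same order of groups, with both late-IL-10 libraries between the IL-10-throughout and LPS values. LPS raised Bcl2a1d pre-mRNA by 8.96 ± 0.70 (limma-trend adjusted p = 0.000119). The untreated pre-mRNA values rest on 19 and 2 reads, so the size of this rise depends in part on the value of 1 added before the logarithm.

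The fall of Bcl2a1d pre-mRNA with IL-10 throughout against LPS was -3.67 ± 0.70 on the log2 scale (limma-trend adjusted p = 0.0269). Its mRNA difference was -2.43 ± 0.48 and missed the threshold (limma-trend adjusted p = 0.0558), with both IL-10-throughout libraries below both LPS libraries. With limma-voom, which models the recovered reads, that mRNA difference passed (-2.44, adjusted p = 0.0232, in a range of 0.0232 to 0.229 over 12 alternatives). The pre-mRNA call was lost when any of 3 libraries was left out: the change was -3.34 without LPS library A, -4.38 without IL-10-throughout library A and -2.96 without IL-10-throughout library B, and none of these passed (limma adjusted p between 0.0161 and 0.161 over 12 alternatives). It was also lost when no filter on low genes was set (-3.67, limma-trend adjusted p = 0.0822). For Bcl2a1d and Bcl2a1b, the 12 alternatives include the fit of the A1 copies' summed reads, described below. With late IL-10 against LPS the differences were -0.01 ± 0.48 in mRNA and -1.11 ± 0.70 in pre-mRNA, with a limma-trend adjusted p of 1.00 for both.

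Bcl2a1b followed the same order of groups from a higher untreated level. Its mRNA had 3299 and 1243 normalized reads with IL-10 throughout, 10880.3 and 4966 in late-IL-10 cells, 5913 and 10395 with LPS, and 476 and 341 in untreated cells. Its pre-mRNA had 1237 and 451 normalized reads with IL-10 throughout, 3698 and 1332 in late-IL-10 cells, 5771 and 3349.8 with LPS, and 246 and 129.7 in untreated cells. In both measures the LPS libraries lay above the IL-10-throughout libraries and these above the untreated ones, without overlap, and late IL-10 overlapped LPS. LPS raised Bcl2a1b by 4.28 ± 0.57 in mRNA (limma-trend adjusted p = 0.00193) and by 4.61 ± 0.64 in pre-mRNA (limma-trend adjusted p = 0.00117). Between IL-10 throughout and LPS, the differences were -1.95 ± 0.57 in mRNA (limma-trend adjusted p = 0.163) and -2.56 ± 0.64 in pre-mRNA (limma-trend adjusted p = 0.0563), and neither passed. The pre-mRNA difference passed when libraries were scaled to their total reads (-2.09, limma-trend adjusted p = 0.0393). With a library left out it ran from -3.28 to -1.83. A gene named Gm29094 overlaps 8449 bases of Bcl2a1b on the same strand, and Gm10634 overlaps Bcl2a1d on the opposite strand. The labels describe a directional kit, and whether counting used strand is not given in the sources used here.

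Because the copies share sequence, their reads were also summed, a choice made after the data were seen. The sum of Bcl2a1a, Bcl2a1b, Bcl2a1c and Bcl2a1d rose with LPS by 4.63 ± 0.48 in mRNA (limma-trend adjusted p = 0.000716) and by 5.57 ± 0.61 in pre-mRNA (limma-trend adjusted p = 0.000430). The sum fell with IL-10 throughout against LPS by 2.89 ± 0.61 in pre-mRNA (limma-trend adjusted p = 0.0350), and its mRNA difference of -2.01 ± 0.48 missed the threshold (limma-trend adjusted p = 0.0975). For the sum it does not matter to which copy a read was assigned. Reads dropped or counted more than once for matching several copies would still change it. Bcl2a1c, annotated with 1 exon, had 0 pre-mRNA reads in every library. The pre-mRNA sum, and the pre-mRNA shares below, therefore rest on the other copies only.

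The division of A1 reads among the copies was set out for each measure, and the measures gave different pictures. With IL-10 throughout, Bcl2a1d held 21.9% (95% Wilson interval 20.3 to 23.5) of A1 pre-mRNA normalized reads in library A and 21.3% (18.4 to 24.5) in library B. With late IL-10 it held 35.3% (34.3 to 36.3) and 33.3% (31.4 to 35.1). With LPS it held 36.9% (36.0 to 37.9) and 37.3% (36.0 to 38.6), and in untreated cells 3.96% (2.55 to 6.10) and 2.17% (0.598 to 7.58). In pre-mRNA the libraries of a group were alike in this share, and no IL-10-throughout library overlapped an LPS or untreated library. In mRNA the share of Bcl2a1d was 6.08% and 15.4% with IL-10 throughout, 8.40% and 22.1% in late-IL-10 cells, 20.8% and 8.06% with LPS, and 0.401% and 1.75% in untreated cells. There the libraries of each treated group lay far apart, and IL-10 throughout overlapped LPS. The shares were looked at after the values were known and were not tested, and the intervals cover counting error only. Bcl2a1a had no mRNA read in untreated cells and 1113 reads over both LPS libraries, at least 510-fold higher when the untreated group is set to the 3 reads that a count of 0 allows. Its pre-mRNA had 1841 reads with LPS and 1 read in untreated cells, which makes the ratio 2965 (95% interval for counting error, 531 to 117155).

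Bcl2l1, which encodes the survival protein Bcl-xL, rose with LPS by a smaller amount. The gene spans chr2:152780668-152831728 on the minus strand. Its mRNA had 2343 and 5138 normalized reads with IL-10 throughout, 4919 and 6868 in late-IL-10 cells, 7016 and 4855 with LPS, and 1433 and 2115 in untreated cells. Both LPS libraries exceeded both untreated libraries, and IL-10-throughout library B lay between the LPS libraries. The LPS change was 1.74 ± 0.42 in mRNA (limma-trend adjusted p = 0.0184) and 1.56 ± 0.32 in pre-mRNA (limma-trend adjusted p = 0.00661). The mRNA call was lost without LPS library A (1.48), without untreated library A (1.46) or with libraries scaled to total reads (1.00), and the pre-mRNA call under that scaling (0.64). Bcl2l1 pre-mRNA had 3342 and 4589.8 normalized reads with IL-10 throughout, 7461 and 5758 in late-IL-10 cells, 8291 and 5537 with LPS, and 1962 and 2707 in untreated cells. Both IL-10-throughout libraries thus lay below both LPS libraries in pre-mRNA, by -0.79 ± 0.32 on the log2 scale, which did not pass (limma-trend adjusted p = 0.192). The mRNA difference of -0.75 ± 0.42 did not pass either (limma-trend adjusted p = 0.491).

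Mcl1, the short-lived survival protein of the family, had the smallest LPS rise among the survival genes called. It spans chr3:95658788-95663176 on the plus strand. Its mRNA had 70390.4 and 56500.1 normalized reads with IL-10 throughout, 59902 and 51118 in late-IL-10 cells, 50922 and 66126 with LPS, and 35865 and 32869.9 in untreated cells. All 6 treated libraries exceeded both untreated libraries, and the treated groups overlapped. The LPS difference of 0.76 ± 0.25 in mRNA lay just outside the threshold (limma-trend adjusted p = 0.0515), and it was 0.0084 under total-read scaling. In pre-mRNA Mcl1 rose by 0.85 ± 0.25 (limma-trend adjusted p = 0.0282), a value that was -0.071 when libraries were scaled to total reads and 0.84 relative to the shift of all genes under that scaling. That call was lost without LPS library A (0.74) and without untreated library A (0.65). Mcl1 pre-mRNA had 3736 and 2919 normalized reads with IL-10 throughout, 3776 and 3161 in late-IL-10 cells, 3976 and 3429 with LPS, and 1787 and 2356 in untreated cells. Mcl1 differed with IL-10 throughout against LPS by 0.12 ± 0.25 in mRNA and -0.16 ± 0.25 in pre-mRNA, smaller than their standard errors.

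Bcl2, which gives the family its name and spans chr1:106538178-106714274 on the minus strand, was the survival gene with a lower mean in LPS cells. Its mRNA had 94.7 and 176 normalized reads with IL-10 throughout, 89.5 and 281 in late-IL-10 cells, 329.7 and 122 with LPS, and 599 and 722 in untreated cells. Every treated library lay below both untreated libraries, and the libraries within each treated group differed widely. The LPS difference of -1.71 ± 0.67 did not pass (limma-trend adjusted p = 0.0871). It passed without LPS library A (-2.42, limma-trend adjusted p = 0.0489) and was -0.99 without LPS library B, and the limma adjusted p ran between 0.0338 and 0.378 over 12 alternatives. The Bcl2 pre-mRNA had 123 and 287 normalized reads with IL-10 throughout, 120.1 and 306 in late-IL-10 cells, 175 and 356 with LPS, and 325 and 370.1 in untreated cells. In pre-mRNA the LPS libraries overlapped the untreated ones, while both groups with IL-10 lay below them, and the LPS difference was -0.47 ± 0.58 (limma-trend adjusted p = 0.532). With IL-10 throughout against LPS, Bcl2 differed by -0.63 ± 0.67 in mRNA, a value that was 0.085 without LPS library A, and by -0.41 ± 0.58 in pre-mRNA, and neither passed.

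**Figure D2:**
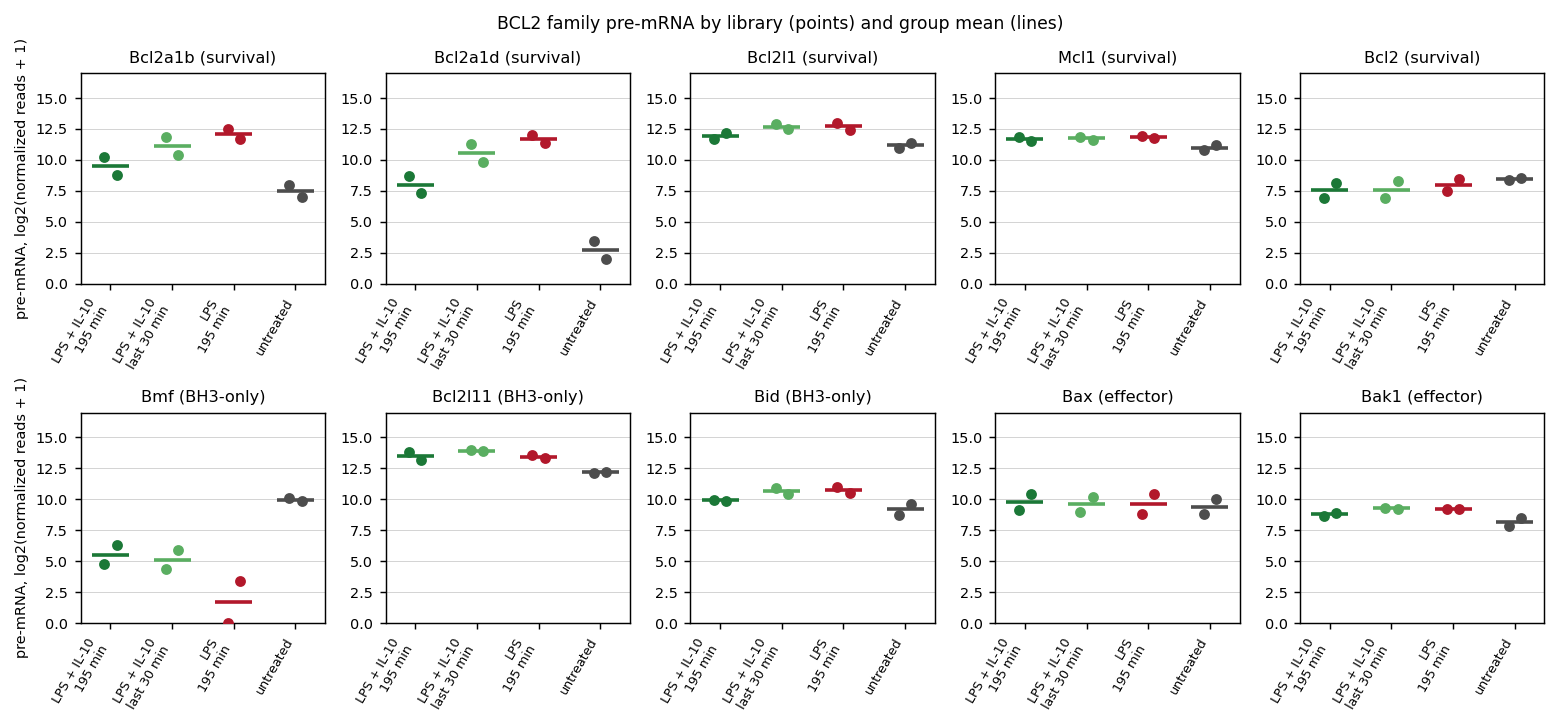
Pre-mRNA of the 10 genes in every library, as log2(normalized reads + 1) on a common axis, with 1 point per library and a line at the mean of the 2 points. Bcl2a1d has 419.6 and 156 normalized reads with IL-10 throughout, against 4115 and 2612 with LPS, and Bmf has its lowest values in the LPS libraries (0 and 9.45).

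Bmf, a BH3-only gene whose protein binds survival members and is held on the actin-based motor complex until released, moved opposite to the A1 genes. It spans chr2:118528757-118549687 on the minus strand. Its mRNA had 95.6 and 146 normalized reads with IL-10 throughout, 22.1 and 62.4 in late-IL-10 cells, 35.0 and 15.4 with LPS, and 2471 and 1813 in untreated cells. The LPS values rest on 34 and 11 reads and the untreated values on 3736 and 1461 reads. All treated libraries lay far below both untreated libraries, and IL-10-throughout libraries lay above both LPS libraries. With LPS, Bmf mRNA fell by 6.44 ± 0.59 on the log2 scale (limma-trend adjusted p = 0.000460).

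The Bmf pre-mRNA had 25.8 and 78.7 normalized reads with IL-10 throughout, 19.4 and 57.2 in late-IL-10 cells, 0 and 9.45 with LPS, and 1072 and 941 in untreated cells. LPS library A had 0 reads and LPS library B had 7 reads, while the untreated libraries had 2013 and 646. The LPS change was -8.28 ± 1.09 (limma-trend adjusted p = 0.000932), and its size depends on the value of 1 added before the logarithm. Bmf was higher with IL-10 throughout than with LPS by 2.29 ± 0.59 in mRNA (limma-trend adjusted p = 0.123) and by 3.84 ± 1.09 in pre-mRNA (limma-trend adjusted p = 0.0811), and neither passed. Both measures had all IL-10-throughout libraries above all LPS libraries. The pre-mRNA difference rested on single LPS libraries: it was 5.53 and passed without LPS library B (limma-trend adjusted p = 0.0171) and was 2.15 without LPS library A (limma-trend adjusted p = 0.280), in a range of 0.0171 to 0.362 over 12 alternatives. With late IL-10 against LPS, Bmf pre-mRNA was higher by 3.42 ± 1.09 (limma-trend adjusted p = 0.347), with an unadjusted p of 0.0146 in that limma-trend fit, and by 1.72 to 5.11 with a library left out. At its highest with IL-10, 146 normalized reads of Bmf mRNA, the gene was still below 1813, its lower untreated value.

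Bcl2l11 encodes Bim, a BH3-only protein that binds all survival members, and it moved opposite to Bmf with LPS. It spans chr2:128126038-128162547 on the plus strand, on the same chromosome as Bmf. Its mRNA had 56371 and 35660.2 normalized reads with IL-10 throughout, 35134 and 30218 in late-IL-10 cells, 28366 and 33649 with LPS, and 10842 and 8855 in untreated cells. All treated libraries exceeded both untreated ones, and both IL-10-throughout libraries exceeded both LPS libraries. LPS raised Bcl2l11 mRNA by 1.66 ± 0.28 on the log2 scale (limma-trend adjusted p = 0.00495). The IL-10-throughout difference from LPS of 0.54 ± 0.28 in mRNA did not pass (limma-trend adjusted p = 0.448).

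In pre-mRNA, Bcl2l11 had 14155 and 9399 normalized reads with IL-10 throughout, 16012 and 14809 in late-IL-10 cells, 12049 and 10253 with LPS, and 4464 and 4769 in untreated cells. Its LPS rise in pre-mRNA was 1.27 ± 0.31 (limma-trend adjusted p = 0.0127). That call was lost without LPS library A (1.15), untreated library A (1.22) or untreated library B (1.32) and under total-read scaling (0.35), and the limma adjusted p ran between 0.00841 and 0.246 over 12 alternatives. Late-IL-10 libraries lay above both LPS libraries by 0.47 ± 0.31, with a limma-trend adjusted p of 1.00.

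The promoter windows of these BH3-only genes are shown because Bmf and Bcl2l11 moved in opposite directions with LPS and because the single FOXO match of the family lies here. They come from RefSeq on GRCm38.p6, and capitals mark the match, bases -227 to -221 from the annotated start.
Bcl2l11, chr2:128125788-128126087, plus strand: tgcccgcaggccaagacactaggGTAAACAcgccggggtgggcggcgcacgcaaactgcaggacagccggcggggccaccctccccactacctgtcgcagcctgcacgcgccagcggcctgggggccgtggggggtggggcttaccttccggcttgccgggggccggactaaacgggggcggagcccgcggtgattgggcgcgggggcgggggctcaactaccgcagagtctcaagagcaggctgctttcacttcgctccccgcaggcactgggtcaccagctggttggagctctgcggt
Bmf, chr2:118549637-118549936, minus strand: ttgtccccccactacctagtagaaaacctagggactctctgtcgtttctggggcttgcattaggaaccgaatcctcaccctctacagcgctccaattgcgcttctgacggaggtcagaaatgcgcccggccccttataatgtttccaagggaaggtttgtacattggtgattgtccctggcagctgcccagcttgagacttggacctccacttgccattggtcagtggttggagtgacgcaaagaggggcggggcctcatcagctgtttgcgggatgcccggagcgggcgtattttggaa
The Bmf window is the outermost of its 3 RefSeq windows and holds none of the 3 motifs. The Bcl2l11 window is the outermost of its 2.

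Bid, which is cut by an initiator caspase of the death receptor pathway and then engages the mitochondria, rose with LPS. It spans chr6:120891930-120916853 on the minus strand, and 913 of its bases overlap Bcl2l13 on the opposite strand. Its mRNA had 1256 and 1198 normalized reads with IL-10 throughout, 1526 and 1237 in late-IL-10 cells, 1160.2 and 1461 with LPS, and 431 and 691 in untreated cells. All treated libraries exceeded both untreated libraries and the treated groups overlapped. The LPS change was 1.25 ± 0.27 in mRNA (limma-trend adjusted p = 0.0135) and 1.52 ± 0.34 in pre-mRNA (limma-trend adjusted p = 0.00940). The mRNA call was lost without LPS library B (1.09) or untreated library A (0.91), and the pre-mRNA call without LPS library A (1.27) or untreated library A (1.06). Under total-read scaling both were lost (0.51 in mRNA and 0.60 in pre-mRNA). Bid pre-mRNA had 1004 and 923 normalized reads with IL-10 throughout, 1900.2 and 1396 in late-IL-10 cells, 1991 and 1414 with LPS, and 426 and 804 in untreated cells. Both IL-10-throughout libraries lay below both LPS libraries, by -0.80 ± 0.34 on the log2 scale, which did not pass (limma-trend adjusted p = 0.212).

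Bax and Bak1 are the pore-forming effectors. Bax, at chr7:45461697-45466898 on the minus strand, shared 915 bases with Gm45808 on the same strand. Its mRNA had 1240.3 and 1854 normalized reads with IL-10 throughout, 1445 and 2009 in late-IL-10 cells, 1871 and 1349 with LPS, and 991 and 1898 in untreated cells. All 4 groups overlapped in both measures. The Bax difference with LPS was 0.21 ± 0.38 in mRNA (limma-trend adjusted p = 0.700) and 0.19 ± 0.72 in pre-mRNA (limma-trend adjusted p = 0.845). Bax pre-mRNA had 547 and 1375 normalized reads with IL-10 throughout, 509 and 1192 in late-IL-10 cells, 444 and 1356 with LPS, and 443 and 1042 in untreated cells. Library B exceeded library A in every group of the Bax pre-mRNA, by more than any difference between group means. The fit used group only, so that gap entered the error and small changes could be missed. Whether the gap is a difference between macrophage pools was not tested.

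Bak1, at chr17:27019810-27029009 on the minus strand, lies wholly within Ggnbp1 on the opposite strand. Its mRNA had 2856 and 3767 normalized reads with IL-10 throughout, 3022 and 3605 in late-IL-10 cells, 3537 and 3117 with LPS, and 1361 and 2778 in untreated cells. The untreated libraries differed by more than the treated ones, and the LPS difference of 0.77 ± 0.34 did not pass (limma-trend adjusted p = 0.123). Without untreated library B it was 1.29 and passed (limma-trend adjusted p = 0.0242), without untreated library A it was 0.26, and under total-read scaling it was 0.023, with an adjusted p of 0.0242 to 0.965 over 12 alternatives. Bak1 pre-mRNA had 398 and 477 normalized reads with IL-10 throughout, 612 and 608 in late-IL-10 cells, 588 and 584 with LPS, and 232 and 348 in untreated cells. The pre-mRNA rose by 1.04 ± 0.25 with LPS (limma-trend adjusted p = 0.0130), a call lost without LPS library A (1.04), without untreated library A (0.75) or under total-read scaling (0.12). In pre-mRNA both IL-10-throughout libraries lay between the untreated and the LPS libraries, a difference from LPS of -0.43 ± 0.25 (limma-trend adjusted p = 0.369).

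**Figure D3:**
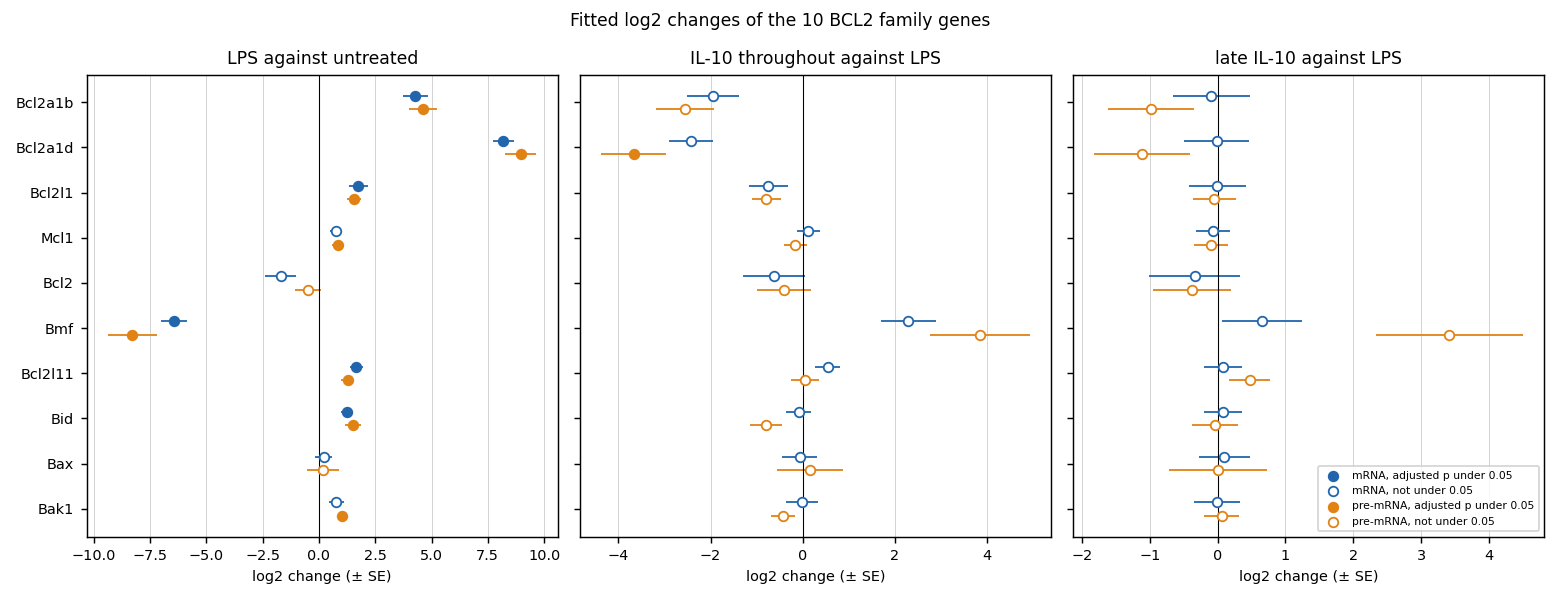
Fitted log2 changes of the 10 genes in mRNA and pre-mRNA, with bars of 1 standard error (2 libraries per group), for LPS against untreated, IL-10 throughout against LPS and late IL-10 against LPS, each panel on its own axis. Filled points passed an adjusted p of 0.05. Bcl2a1d pre-mRNA (-3.67 ± 0.70) is the single filled point in the panels with IL-10.

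The LPS calls differed in how firmly they held. Those of Bmf, Bcl2a1b and Bcl2a1d passed in both measures under all 12 alternatives run for each. Scaling libraries to total reads, in place of size factors, moved the median LPS change of all genes by -0.75 in mRNA and -0.91 in pre-mRNA, and the count of members called was then 5 in mRNA and 3 in pre-mRNA. Relative to that shift, Bcl2l1 changed by 1.74 in mRNA and 1.54 in pre-mRNA, and Bid by 1.25 and 1.51, close to the values in the size-factor scaling. Without that shift taken off, Bcl2l1 and Bid were no longer called in mRNA and Bcl2 was, and in pre-mRNA Bcl2l1, Bcl2l11, Bid, Bak1 and Mcl1 were no longer called.

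Between IL-10 throughout and LPS, the differences of the members ran from -2.43 to 2.29 in mRNA and from -3.67 to 3.84 in pre-mRNA. By limma-trend 0 of 10 genes passed in mRNA, where 2.24% of all genes passed. The median log2 difference of the 10 genes was -0.08 in mRNA and -0.42 in pre-mRNA, beside -0.02 and 0.00 over all genes. In mRNA 3 of 10 genes had an unadjusted p under 0.05 in limma-trend (Bmf higher, Bcl2a1b and Bcl2a1d lower), where 14.6% of all genes did, and limma-voom called 1. In pre-mRNA 5 of 10 had one (Bmf higher, Bcl2a1b, Bcl2a1d, Bcl2l1 and Bid lower), where 23.1% of all genes did. The libraries of IL-10 throughout and LPS did not overlap for 4 of 10 genes in mRNA, where 41.9% of all genes did not, and for 6 of 10 in pre-mRNA, where 50% did not. These non-overlap shares were near those of all genes. Mcl1, Bax, Bak1 and Bid had mRNA differences between -0.09 and 0.12, each smaller than its standard error. In pre-mRNA that held for Mcl1 and Bax but not for Bid (-0.80 ± 0.34) and Bak1 (-0.43 ± 0.25).

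Late IL-10 against LPS gave small mRNA differences throughout the family, between -0.34 (Bcl2) and 0.66 (Bmf). By limma-trend 0 of 10 genes passed in mRNA, where 0% of all genes passed, 0 had an unadjusted p under 0.05, where 0.937% of all genes did, and limma-voom called 0. In pre-mRNA limma-trend called 0 of 10, where 1.04% of all genes passed, limma-voom called 0, and 1 of 10, Bmf, had an unadjusted p under 0.05, where 7.61% of all genes did. Without late-IL-10 library B the Bmf mRNA difference was -0.071. The pre-mRNA differences of Bcl2a1b (-0.99 ± 0.64) and Bcl2a1d (-1.11 ± 0.70) lay between 0 and those of IL-10 throughout (-2.56 ± 0.64 and -3.67 ± 0.70). Setting IL-10 throughout directly against late IL-10, which differ in the time with IL-10, gave 0 of 10 in mRNA, where 1.09% of all genes passed, and 0 of 10 in pre-mRNA, where 2.96% passed. In that comparison Bcl2a1d differed by -2.41 ± 0.48 in mRNA (limma-trend adjusted p = 0.0795) and by -2.56 ± 0.70 in pre-mRNA (limma-trend adjusted p = 0.0885). The mRNA difference passed with limma-voom (adjusted p = 0.0345, in a range of 0.0345 to 0.313 over 12 alternatives). Bcl2a1b differed by -1.86 ± 0.57 and -1.57 ± 0.64, and Bmf by 1.63 ± 0.59 and 0.42 ± 1.09, and none of these passed. In limma-trend 3 of 10 genes had an unadjusted p under 0.05 in mRNA, where 14% of all genes did, and 2 in pre-mRNA, where 21.6% did, and limma-voom called 1 in mRNA and 0 in pre-mRNA.

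Precursor and mature transcript were then set against each other. In an interaction fit over both measures, which takes the measures as independent even though 1 RNA sample gave both, 0 of 10 genes had a pre-mRNA change that differed from the mRNA change with LPS, where 1.24% of all genes did. With IL-10 throughout against LPS it was also 0 of 10, where 0.0629% of all genes did. In limma-trend 0 of 10 had an unadjusted p under 0.05 in either comparison, where 10.6% of all genes did with LPS and 3.78% with IL-10 throughout. The standard errors of these differences ran between 0.36 and 1.37, so only large differences were detectable. For Bcl2a1d the LPS rise was 0.77 ± 0.94 larger in pre-mRNA, and for Bmf the LPS change was -1.84 ± 1.37 further down. The ratio of pre-mRNA to mRNA group means was 1.15 for Bcl2a1d with IL-10 throughout, 1.26 in late-IL-10 cells, 2.40 with LPS and 1.59 in untreated cells. For Mcl1 that ratio stayed between 0.052 and 0.063 in the 4 groups. The size factors of each measure are its own, so such ratios compare groups within a gene and are not molecules per molecule.

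**Figure D4:**
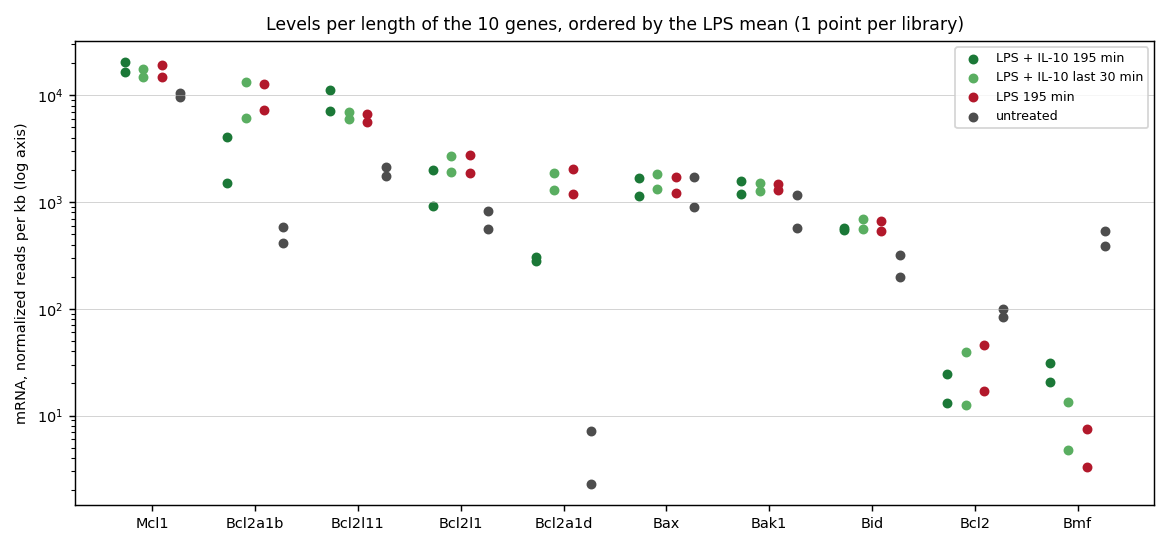
Mature mRNA of the 10 genes per kilobase of the longest annotated protein-coding transcript, on a log axis, with 1 point per library and groups in the same order within each gene. Mcl1 is highest in every library. Bmf has the lowest mean in LPS cells (5.43) and Bcl2a1d in untreated cells (4.75).

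Per kilobase, so that genes can be compared, Mcl1 was the most abundant member in every group. With IL-10 throughout the mean normalized reads per kilobase were 18562 for Mcl1, 9137 for Bcl2l11, 2780.0 for Bcl2a1b, 1457 for Bcl2l1, 1407 for Bax, 1387 for Bak1, 561 for Bid, 291 for Bcl2a1d, 26.0 for Bmf and 18.9 for Bcl2. With late IL-10 they were 16241 for Mcl1, 9698 for Bcl2a1b, 6489 for Bcl2l11, 2295 for Bcl2l1, 1580.3 for Bcl2a1d, 1569.7 for Bax, 1388 for Bak1, 631 for Bid, 25.8 for Bcl2 and 9.11 for Bmf. The order with late IL-10 was that of LPS cells. With LPS they were 17122 for Mcl1, 9981 for Bcl2a1b, 6157 for Bcl2l11, 2311 for Bcl2l1, 1622 for Bcl2a1d, 1464 for Bax, 1394 for Bak1, 599 for Bid, 31.4 for Bcl2 and 5.43 for Bmf. In untreated cells they were 10055 for Mcl1, 1956 for Bcl2l11, 1313 for Bax, 867 for Bak1, 691 for Bcl2l1, 500.0 for Bcl2a1b, 462 for Bmf, 256 for Bid, 91.9 for Bcl2 and 4.75 for Bcl2a1d. Bmf thus stood lowest in LPS cells and near Bcl2a1b in untreated cells, where Bcl2a1d was lowest. Neighbours whose libraries overlapped were Bcl2l1, Bcl2a1d, Bax and Bak1 in LPS cells, and Bax, Bak1, Bcl2l1, Bcl2a1b and Bmf in untreated cells. With IL-10 throughout, the neighbours Bcl2a1b, Bcl2l1, Bax and Bak1 overlapped, as did Bmf and Bcl2. With late IL-10, Bcl2a1b overlapped Bcl2l11, Bcl2a1d, Bax and Bak1 overlapped in turn, and so did Bcl2 and Bmf. The order depends on transcript length, for which the longest protein-coding transcript of GENCODE M21 was used, and which Bcl2l11 or Bcl2l1 isoforms these cells make was not measured.

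The genes whose pattern over the 8 group means was most like that of Bcl2a1d and Bmf were found by Euclidean distance on the log2 scale, each measure centred, among 11130 genes. For Bcl2a1d, whose own pattern measured 9.50 on that scale, they were Sh2d4a at 1.01, the activation marker Cd69 at 1.01 and the interferon-induced GTPase gene Gbp6 at 1.11. For Bmf, at 7.26, they were the chemokine receptor gene Cxcr4 at 1.50, the receptor gene Cd300lb at 1.71 and Zfp395 at 2.15.

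Of the other BCL2 family genes, 10 of 16 listed were in the table. With LPS 3 of 10 rose and 0 fell in mRNA, with a median change of 0.37, and 3 of 9 rose and 1 fell in pre-mRNA, with a median of -0.05. Of all genes, 19.2% rose and 16.5% fell in mRNA, and 22.3% rose and 21.7% fell in pre-mRNA. The mRNA calls were the A1 copies Bcl2a1a and Bcl2a1c (5.04 ± 0.79) and the survival gene Bcl2l2 (0.55 ± 0.16). The pre-mRNA calls were Bcl2a1a, the mitochondrial BH3-related gene Bnip3 (2.06 ± 0.35) and Bcl2l13 (0.65 ± 0.18), which rose, and the BH3-only gene Bad (-1.11 ± 0.26), which fell. With IL-10 throughout against LPS, Bcl2a1a pre-mRNA fell (-2.63 ± 0.55, limma-trend adjusted p = 0.0354) and Bnip3 pre-mRNA rose (1.51 ± 0.35, limma-trend adjusted p = 0.0458). Of 9 genes tested in pre-mRNA, 1 thus rose and 1 fell, where 6.7% of all genes passed. In mRNA limma-trend and limma-voom called 0 of 10, and 3 had an unadjusted p under 0.05 in limma-trend, where 14.6% of all genes did. Bnip3 pre-mRNA had 5887 and 3662 normalized reads with IL-10 throughout and 1835 and 1447 with LPS. The BH3-only genes Bbc3, which encodes Puma, and Pmaip1, which encodes Noxa, differed with LPS by -0.05 ± 0.74 and 0.60 ± 0.57 in mRNA and did not pass.

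Downstream of the mitochondria, 4 of 18 caspase and mitochondrial death genes rose and 5 fell with LPS in mRNA, with a median change of 0.21, and 8 rose and 4 fell in pre-mRNA, with a median of 0.41, where 35.7% of all genes passed in mRNA and 44% in pre-mRNA. The inhibitor of apoptosis gene Birc3 rose by 3.24 ± 0.25 in mRNA and Birc6 by 1.12 ± 0.19. Casp9, the caspase that acts on the apoptosome, fell (-2.02 ± 0.22), as did the executioner gene Casp6 (-1.22 ± 0.25). Casp9 pre-mRNA had 282 and 320.4 normalized reads with IL-10 throughout, 142 and 137 in late-IL-10 cells, 119.9 and 159 with LPS, and 555 and 629 in untreated cells. It was the 1 gene of this list that passed with IL-10 throughout against LPS (1.11 ± 0.25, limma-trend adjusted p = 0.0436). That is 1 of 18 in pre-mRNA, where 6.7% of all genes passed. In mRNA limma-trend and limma-voom called 0 of 18 in that comparison. There 3 had an unadjusted p under 0.05 in limma-trend, where 14.6% of all genes did.

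Of the death receptor genes, 15 of 16 listed were in the table, and with LPS 9 rose and 0 fell in each measure, with median changes of 1.88 in mRNA and 1.53 in pre-mRNA, where 19.2% of all genes rose in mRNA and 22.3% in pre-mRNA. The NF-kB inhibitor Tnfaip3 rose by 6.53 ± 0.33 in mRNA, the caspase inhibitor gene Cflar by 4.59 ± 0.46, the receptor Fas by 4.31 ± 0.41 and the receptor Tnfrsf10b by 2.55 ± 0.22. With IL-10 throughout against LPS, 1 of 15 passed in pre-mRNA, the necroptosis effector gene Mlkl (-3.13 ± 0.70, limma-trend adjusted p = 0.0412), which fell. Of all genes, 6.7% passed there, so the count is near the share of all genes. In mRNA limma-trend and limma-voom called 0 of 15, and 2 had an unadjusted p under 0.05 in limma-trend, where 14.6% of all genes did.

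Among 19 regulators of BCL2 family genes and proteins, 8 rose and 4 fell with LPS in mRNA, with a median change of 0.75, and 7 rose and 3 fell in pre-mRNA, with a median of 0.90. The share of all genes that passed was 35.7% in mRNA and 44% in pre-mRNA. The NF-kB subunit genes Nfkb1 (3.92 ± 0.24), Rel (3.26 ± 0.43) and Rela (1.68 ± 0.21) and the stress-response factor gene Atf4 (1.18 ± 0.18) rose in mRNA. Foxo3 encodes a transcription factor known to drive Bcl2l11 in other cells, and its mRNA fell (-2.37 ± 0.49), a gene chosen for mention after its values were seen. Stat3, the transcription factor of the IL-10 receptor, rose with IL-10 throughout against LPS in mRNA (1.74 ± 0.22, limma-trend adjusted p = 0.0126) and with late IL-10 against LPS in pre-mRNA (2.12 ± 0.32, limma-trend adjusted p = 0.0282). It was the 1 gene of that list called in the IL-10 comparisons with LPS. Of all genes, 2.24% passed in mRNA with IL-10 throughout and 1.04% in pre-mRNA with late IL-10. With late IL-10 against LPS, limma-trend and limma-voom called 0 genes of the other 3 lists in either measure. In limma-trend 0 in mRNA and 5 in pre-mRNA had an unadjusted p under 0.05, where 0.937% and 7.61% of all genes did.

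Markers of cell types were compared with these results. All 8 macrophage markers were in the table, and their summed mRNA was 458008 to 465027 normalized reads with IL-10 throughout, 555940 to 573574 in late-IL-10 cells, 551706 to 569697 with LPS and 482985 to 508087 in untreated cells. Of 6 dendritic cell markers 5 were in the table, without Flt3, and their summed mRNA was 3057 to 4661 with IL-10 throughout, 8944 to 16008 in late-IL-10 cells, 9528 to 17955 with LPS and 1363 to 2911 in untreated cells. Most of that sum was Itgax, an integrin gene, with mean normalized reads of 3451 with IL-10 throughout, 11902 in late-IL-10 cells, 13087 with LPS and 1977 in untreated cells, the same order of groups as the A1 genes. The other 4 did not all share that order, and Ccr7, a chemokine receptor gene, averaged 48.5 with IL-10 throughout, 22.5 in late-IL-10 cells, 36.5 with LPS and 2.48 in untreated cells. Of 10 neutrophil markers 8 were in the table, without Elane and Ly6g, and their sum was 2400.4 to 4267 with IL-10 throughout, 3264 to 4984 in late-IL-10 cells, 3305 to 5089 with LPS and 2069.8 to 2657 in untreated cells. With LPS 4 of 5 dendritic and 6 of 8 neutrophil markers rose in mRNA, where 19.2% of all genes did, and their part in the result was not tested. None of 5 B cell markers was in the table, and of the T cell, stromal and mast cell lists 2 of 5, 3 of 6 and 1 of 3 were. Reads were assigned to Il10 (144 to 6199 normalized reads of mRNA over the 8 libraries) and to Rag2 (38.8 to 82.7). The table does not say which exons they came from, so they do not check the disruptions.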

How the data were processed

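RNA from 8 libraries, 2 for each of 4 groups, was measured by directional sequencing, per the labels' protocols. The authors deposited 1 table of 11415 genes with a signal value per group and measure (mRNA and pre-mRNA), in 8 columns with no replicate number. The submitters' processing notes name Trim Galore, DESeq and build mm10. Not given in the sources used here are tool versions, the aligner, the counter, the annotation and what made a read a pre-mRNA read. In every column the deposited signal broke down into whole-number multiples of 2 fixed steps, so both libraries' reads were recovered for 100% of values, within a relative error of 5.26e-15 and with no second solution. Recovery was tested on 3 simulated columns of 3000 genes and returned at least 99.97% of values, and the steps gave back the median-of-ratios size factors of those reads.

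Genes with a mean of at least 1 normalized read (11415 in mRNA, 11131 in pre-mRNA) were tested with limma 3.58.1 in R 4.3.3 (limma-trend on log2(normalized reads + 1), group only, all 8 libraries of a measure in 1 fit), after a test on simulated data. Alternatives were limma-voom on the recovered reads, pseudocounts of 0.5 and 5, no filter and a mean of at least 10, total-read scaling, the compared groups alone, each library left out and, added later, the A1 genes summed. The 10 genes and the lists beside them were chosen with earlier results of these data known. All 10 genes are named in every comparison. Of each list, up to 4 genes called in a comparison and measure are named, mostly those with the smallest adjusted p in either measure. Other calls are left unnamed, Tnfrsf1b mRNA with LPS among them, and family members are added for completeness. Sequences and coordinates come from RefSeq promoter tables on GRCm38.p6 and from GENCODE M21 on GRCm38, the build that mm10 denotes. No protein sequence was used here. Counting error is small beside the spread between libraries except where reads number below about 100, as for Bmf and Bcl2a1d, whose lowest reads are given. Bcl2 mRNA also had 87 reads in LPS library B and 97 in late-IL-10 library A. Bcl2a1b pre-mRNA had 89 in untreated library B.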

Additional observations from a re-analysis of the deposited data

How the results depend on the processing

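No paired analysis was possible because the deposited columns carry no replicate number. Of 444 refits of single-gene results (37 results), 405 kept direction and side of the threshold, 24 lost the call, 12 gained it and 3 changed sign. Those that changed sign were Mcl1 pre-mRNA with LPS (-0.071 under total-read scaling), Bcl2 mRNA with IL-10 throughout against LPS (range with a library left out -1.34 to 0.085) and Bmf mRNA with late IL-10 against LPS (-0.071 to 1.38). Only the first of these was called as first fitted. Some of the 444 refits could hardly differ from the first fit. All genes passed the filter in mRNA, so leaving it out changed nothing there. Summing the A1 genes replaced only their own values, so other genes kept nearly the same fit. The 405 is therefore not a measure of how firm the results are. For IL-10 throughout against LPS, the count of the 10 genes called in mRNA was 1 in place of 0 with limma-voom and with a pseudocount of 5, and that in pre-mRNA was 0 with no filter, 2 under total-read scaling and 0 to 2 with a library left out, in place of 1. For IL-10 throughout against late IL-10 it was 1 in mRNA with limma-voom and with a pseudocount of 5, in place of 0. For LPS against untreated cells it was 4 to 7 in mRNA and 4 to 8 in pre-mRNA with a library left out, and 3 in pre-mRNA under total-read scaling, in place of 6 and 8. The cause was not tested. With 2 libraries a group, changes near 1 on the log2 scale were often missed in simulated data. Those data gave all genes the same spread beyond counting error. Larger differences also missed the threshold in the real data with IL-10 throughout against LPS. Examples are Bmf pre-mRNA (3.84 ± 1.09) and Bcl2a1d mRNA (-2.43 ± 0.48). The pre-mRNA of Bmf in LPS cells rests on 7 reads.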
